A study of Homo sapiens with 24 samples.

Results

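INTS8 and INTS11 are both subunits of Integrator, and the baseline difference between the 2 DLD1 lines that carry a dTAG tag on one or the other was examined here in DMSO. The rule took the Batch1 libraries labelled DMSO for 3 h of the INTS8-dTAG line (2 libraries) and of the INTS11-dTAG line (2 libraries), which makes 4 of the 24 libraries of the series. DLD1 is a human colorectal adenocarcinoma line. In the INTS11 line the tag was knocked in at INTS11, and in the INTS8 line at INTS8; DMSO is the vehicle of dTAG13, the compound that degrades the tagged protein, and the titles and treatment characteristics of the main comparison's libraries say DMSO. The labels' treatment protocol, however, gives dTAG13 for 3 h for every sample; the titles and characteristics were followed, and whether the tagged proteins were intact could not be checked in these files. Further libraries are used beside them: the same lines after 3 h of dTAG13 (2 libraries each), and an N211del line, made from INTS8-tagged cells by ectopic expression of INTS8-N211del, in DMSO in batch 1 (2 libraries) and at 0 h of dTAG13 in batch 2 (2 libraries, beside 2 of the INTS11 line at 0 h). The labels do not say whether each line is 1 clone, and they give no untagged DLD1 cells, so a change made by either tag, by the isolation of a clone or by time in culture cannot be told apart.

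Integrator is a metazoan complex that binds RNA polymerase II close to promoters. INTS11 is its endonuclease, which cleaves nascent RNA and ends unproductive transcription, and INTS8 holds the phosphatase PP2A to the complex, which removes phosphates from the polymerase and its pausing factors. TT-seq labels new RNA with a nucleoside analogue for a short time and sequences fragments of the labelled RNA, so its values follow the rate at which a gene is being transcribed more than the amount of stored mRNA.

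The values are FPKM as deposited, a count per kilobase of gene. Gene lengths were inferred from the values themselves, as a length in kilobases that turns a gene's values in the 12 batch 1 libraries into whole numbers. Such a length was found for all 6832 genes listed in batch 1. That 100% of values then lay within 0.02 of a whole number follows from how the lengths were set. No per-million step was left to see. The whole numbers summed to 7026484 and 7102511 in the INTS11 DMSO libraries and to 7311573 and 7419563 in the INTS8 DMSO libraries. Of 6653 genes listed for the INTS11 line and 6762 for the INTS8 line, 6618 were listed for both. Because the gene lists differ by line, the scale between lines may differ too, and counts after centring each library on its median gene stand beside the counts as deposited. The 2 libraries of each line correlated across genes with r = 0.9952 (INTS11) and 0.9964 (INTS8). As a check on the labelled tissue, 7 of 17 intestinal epithelial markers were listed for the INTS11 line and 8 of 17 for the INTS8 line, with summed levels of 2247 and 2440 FPKM against 2585 and 2593 FPKM; KRT8, KRT18, KRT19, EPCAM, CDX2, CDH17 and KLF5 were present in both lines, while CDX1, HNF4A and VIL1 were among those listed in neither. Of 17 leukocyte markers 2 were listed, at a summed level of 5.69 to 9.29 FPKM. Of 18 fibroblast and endothelial markers only FLT1 was listed, at 0.0257 to 0.0667 FPKM. The filter behind the gene lists is not given, and only 30 of 77 cytosolic ribosomal protein genes were listed. A marker that is not listed therefore need not be silent.

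Most genes that differed were higher in the INTS8 line. Of 6579 genes tested with limma on log2(FPKM + 0.1), 1762 were higher in the INTS8 line (26.8% of tested genes) and 257 were lower (3.91%), at an adjusted p of at most 0.05. At a difference of 1.5-fold or more, 572 genes were higher (8.69%) and 60 lower (0.912%). The median gene was itself 0.10 higher on the log2 scale, and after centring each library the calls were 1396 higher (21.2%) and 1209 lower (18.4%), so the excess of higher genes as a count rests in large part on that shift. Without INTS8 replicate 1 the genes called lower went from 257 to 140. All p-values measure the spread between these libraries, described as biological duplicates, from the pooled spread of the 12 batch 1 libraries.

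**Figure D1:**
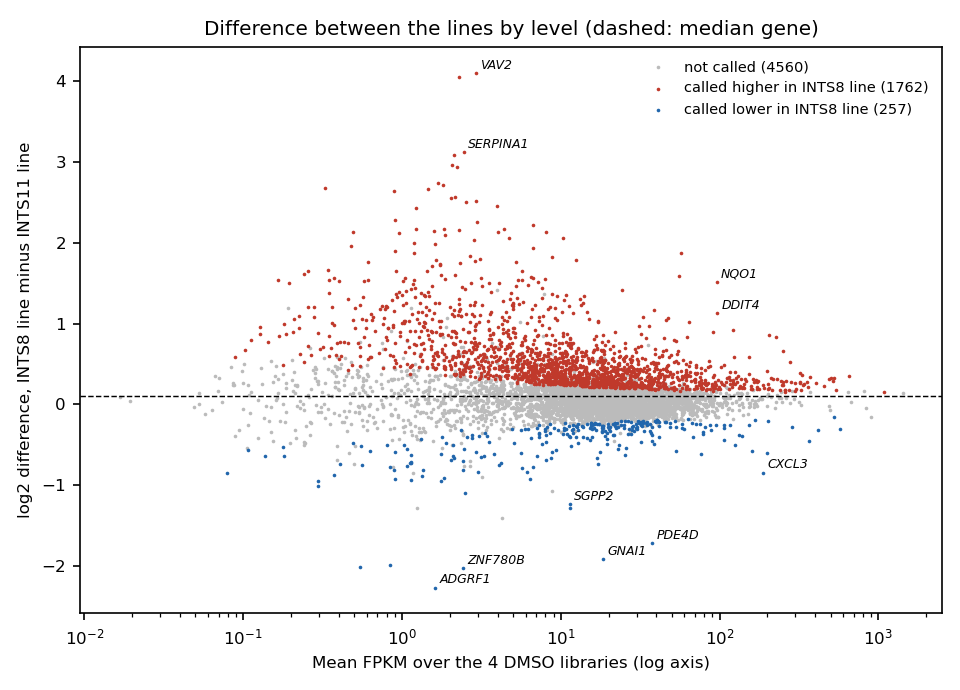
Each point is 1 of the 6579 tested genes, with its mean FPKM over the 4 DMSO libraries on a log axis against the log2 difference, INTS8 line minus INTS11 line. The 1762 genes called higher spread up to 4.10 for VAV2, while the 257 called lower reach -2.26 for ADGRF1 among the labelled genes, and the dashed median lies at 0.10.

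On the log2(FPKM + 0.1) scale the largest difference was in VAV2, which encodes an exchange factor that activates small GTPases. VAV2 stood at 0.234 FPKM in both INTS11 libraries and at 5.59 and 5.65 FPKM in the INTS8 libraries, 24.0-fold higher as a ratio of means (log2 difference 4.10, SE 0.13, limma adjusted p = 3.4e-16). IL7, a cytokine that lymphocytes need to survive, stood at 0.193 and 0.151 FPKM in the INTS11 libraries and at 4.39 and 4.35 FPKM in the INTS8 libraries (log2 difference 4.04, SE 0.15, limma adjusted p = 4.1e-15). Both genes were near the bottom of the range of tested genes in the INTS11 line. The 2 lines did not overlap in either, as the choice of genes required. The N211del line, which shares the INTS8 tag, gave 6.08 and 6.05 FPKM for VAV2 and 2.17 and 2.19 FPKM for IL7 in DMSO.

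SERPINA1, the secreted inhibitor of neutrophil elastase, was at 0.504 and 0.36 FPKM in the INTS11 line and at 4.61 and 4.32 FPKM in the INTS8 line, a log2 difference of 3.11 (SE 0.15). ATOH8, a basic helix-loop-helix transcription factor, was at 0.321 and 0.428 FPKM against 3.88 FPKM in both INTS8 libraries, a log2 difference of 3.08 (SE 0.13). CLDN2, the pore-forming claudin of leaky epithelia, was at 0.403 and 0.483 FPKM against 4.19 and 3.87 FPKM, a log2 difference of 2.93 (SE 0.15). The lines did not overlap in any of these genes, as the choice of genes required. ARHGAP22, a GTPase-activating protein for Rac, was at 0.338 and 0.395 FPKM against 3.01 and 3.02 FPKM (log2 difference 2.74, SE 0.15). ADGRB2, an adhesion G protein-coupled receptor, was at 0.672 and 0.94 FPKM against 5.27 and 4.78 FPKM (2.51, SE 0.15), and SYT12, a synaptotagmin, at 0.361 and 0.288 FPKM against 2.56 and 2.6 FPKM (2.66, SE 0.16). A pair of cytochrome P450 4F genes, enzymes that hydroxylate fatty acids, were also among the 12 genes with the largest positive differences: CYP4F12 at 0.374 and 0.415 FPKM against 3.4 and 4.07 FPKM, and CYP4F3 at 0.41 FPKM in both INTS11 libraries against 3.28 and 3.19 FPKM. These P450 genes have close paralogues beside them, so how reads were divided among the copies is uncertain. RAB36 (0.396 and 0.743 against 4.01 and 3.47 FPKM) and NUPR1 (0.32 and 0.8 against 3.2 and 3.84 FPKM) were the least precise of the 12, with SEs of 0.32 and 0.36 on log2 differences of 2.57 and 2.55. All 12 passed with a limma adjusted p between 3.4e-16 and 0.0016. All 12 were again called higher in the INTS8 line in the dTAG13 libraries, beside 47.8% of all 6579 tested genes.

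**Figure D2:**
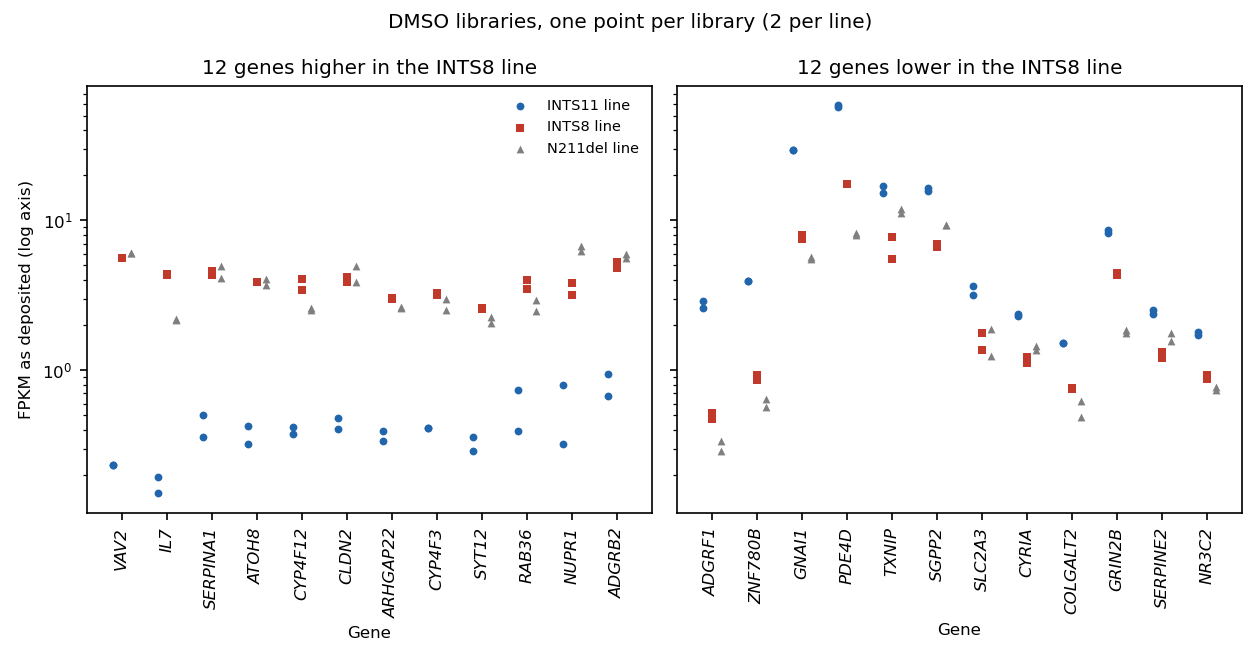
Each point is the FPKM of 1 DMSO library (log axis) for the 12 genes with the largest positive and the 12 with the largest negative difference; circles are the INTS11 line, squares the INTS8 line and triangles the N211del line, 2 libraries each. In every gene both INTS8 points lie on one side of both INTS11 points, as the choice of genes required, and the N211del points are shown beside the same INTS11 libraries on which the genes were chosen.

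Among the 12 genes with the largest negative differences, the one with the highest level was PDE4D, a phosphodiesterase that breaks down cyclic AMP. PDE4D was at 58.5 and 57 FPKM in the INTS11 libraries and at 17.5 and 17.6 FPKM in the INTS8 libraries, a log2 difference of -1.71 (SE 0.08, limma adjusted p = 1.7e-13). GNAI1, the inhibitory G protein alpha subunit that lowers cyclic AMP production, was at 29.3 and 29.6 FPKM against 7.53 and 7.94 FPKM, a log2 difference of -1.91 (SE 0.09, limma adjusted p = 2.9e-13). Both genes act on cyclic AMP, and both lines stood far apart in them. ADGRF1, an adhesion G protein-coupled receptor, had the largest negative difference of the 12, at 2.89 and 2.6 FPKM against 0.471 and 0.515 FPKM (-2.26, SE 0.16). ZNF780B, a zinc-finger gene, was at 3.93 FPKM in both INTS11 libraries and at 0.858 and 0.93 FPKM in the INTS8 libraries (-2.02, SE 0.17).

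TXNIP, the thioredoxin-binding protein that restrains glucose uptake, was at 15.2 and 16.9 FPKM in the INTS11 line and at 7.73 and 5.56 FPKM in the INTS8 line (-1.28, SE 0.13). SLC2A3, the glucose transporter GLUT3, was also lower, at 3.66 and 3.18 FPKM against 1.36 and 1.77 FPKM (-1.09, SE 0.18, limma adjusted p = 0.00028). SGPP2, a sphingosine-1-phosphate phosphatase, was at 15.8 and 16.4 FPKM against 6.62 and 6.97 FPKM (-1.23, SE 0.10). The other 5 genes of this group differed by smaller amounts, with log2 differences between -0.95 and -0.89: CYRIA, which binds Rac; COLGALT2, which glycosylates collagen; GRIN2B, an NMDA receptor subunit; SERPINE2, a serine protease inhibitor; and NR3C2, the mineralocorticoid receptor. NR3C2, for example, was at 1.73 and 1.8 FPKM against 0.88 and 0.935 FPKM. These 24 genes had an adjusted p of at most 0.05 under every alternative run, with the same sign. In the dTAG13 libraries 8 of the 12 genes with negative differences were again called lower and 2 higher. Over all 6579 tested genes 7.1% were called lower there and 47.8% higher.

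Of 5 tested Integrator subunits 1 was higher in the INTS8 line and 0 lower. Of 5 tested PP2A subunits 2 were higher and 0 lower. These counts, and those of the lists below, stand beside 26.8% of all tested genes called higher and 3.91% lower. After centring the shares over all genes were 21.2% and 18.4%. Of the 21 Integrator genes listed for study, 5 were tested, and INTS11 and INTS8 are not analysed here, so the tagged genes give no check of the labels. NABP1, the single-stranded DNA-binding subunit found with INTS3, was at 83.9 and 81.5 FPKM in the INTS11 line and at 95.4 and 98.5 FPKM in the INTS8 line (log2 difference 0.23, limma adjusted p = 0.0058), and its call did not pass after centring (0.13, limma adjusted p = 0.14). INTS1, INTS2, INTS10 and NABP2 had log2 differences of 0.08, 0.17, 0.08 and -0.01, with limma adjusted p between 0.15 and 0.91. Of 5 PP2A subunits, PPP2R3A, a regulatory B″ subunit, was higher, at 0.829 and 0.933 FPKM against 1.83 and 1.82 FPKM (0.97, SE 0.14, limma adjusted p = 1.1e-05). PPP2R2A, a regulatory B subunit, was at 72.6 and 72.2 FPKM against 82.5 and 82.8 FPKM (0.19, limma adjusted p = 0.033), a difference that did not pass after centring (limma adjusted p = 0.061). The scaffold PPP2R1A (0.04), the catalytic PPP2CB (-0.09) and the regulatory PPP2R5C (0.11) did not pass; after centring, PPP2CB passed as lower (-0.19, limma adjusted p = 0.0026).

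Detoxifying and antioxidant enzymes were mostly higher in the INTS8 line. Of 21 tested genes of NRF2 targets and xenobiotic metabolism (NRF2 is the transcription factor that answers oxidants and electrophiles), 16 were higher and 0 lower, with a median log2 difference of 0.41 beside 0.10 over all genes; after centring it was 15 higher and 1 lower. NQO1, a quinone reductase and the standard reporter of NRF2, was at 48.4 and 51.2 FPKM in the INTS11 libraries and at 143 and 141 FPKM in the INTS8 libraries (1.51, SE 0.07, limma adjusted p = 1.5e-13). GSTM4, a glutathione transferase with close paralogues, was at 10.7 and 11.9 FPKM against 23.1 and 23.2 FPKM (1.03, SE 0.09). The glutathione transferase GSTP1 (0.86), the aldehyde dehydrogenase ALDH3A1 (0.81), the thioredoxin reductase TXNRD1 (0.59), haem oxygenase HMOX1 (0.44) and both subunits of the enzyme that starts glutathione synthesis, GCLC (0.41) and GCLM (0.36), were called higher as well. CYP1A1 (-0.41), a target of the aryl hydrocarbon receptor, and CYP2S1 (-0.21) did not pass.

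Amino acid stress genes, which the transcription factor ATF4 switches on when amino acids run short or proteins misfold, showed the same direction: 12 of 15 were higher and 0 lower, with a median of 0.41, and the counts were also 12 and 0 after centring. DDIT4, an inhibitor of mTORC1, was at 59.2 and 62.5 FPKM against 125 and 141 FPKM (1.13, SE 0.08, limma adjusted p = 1.3e-08). NUPR1, a stress-induced chromatin protein, had the largest difference of the list (2.55). PHGDH (0.97) and PSAT1 (0.41), the first enzymes of serine synthesis, CHAC1 (0.72), which degrades glutathione, the cystine transporter SLC7A11 (0.43) and ATF4 itself (0.35) were higher, while TRIB3 (0.19), SLC3A2 (0.02) and CTH (-0.15) did not pass.

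Of 30 cytosolic ribosomal protein genes, 28 were higher and 0 lower, but the sizes were small. Their median log2 difference was 0.25, the largest was in RPS4X (209 and 247 FPKM against 328 and 327 FPKM; 0.53, SE 0.07) and RPL6 (270 and 288 FPKM against 371 and 362 FPKM; 0.39, SE 0.06), and after centring 16 of 30 were called higher. Processed pseudogenes of these genes can share reads with them, so their counts are uncertain. Mitotic genes lay on the other side of the median gene. Of 21 tested, 0 were higher and 5 lower, with a median of -0.13: CENPF, a kinetochore protein, was at 62.6 and 64.2 FPKM against 51.3 and 52.4 FPKM (-0.29, SE 0.07, limma adjusted p = 0.0033), and CENPE, a kinetochore motor, CCNB1, ECT2 and TTK were also called lower, with differences from -0.28 to -0.21. After centring, 18 of the 21 were called lower. Of 22 S phase genes 4 were higher and 0 lower, among them E2F2 (8.23 and 8.35 FPKM against 13.7 and 13.9 FPKM; 0.73, SE 0.09), and after centring 2 were higher and 8 lower. CDKN1C, an inhibitor of cyclin-dependent kinases, was at 1.56 and 1.96 FPKM against 8.22 and 7.04 FPKM (2.06, SE 0.12, limma adjusted p = 3e-09).

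Cholesterol genes were higher in the INTS8 line in 8 of 13 tested and lower in 0, with a median of 0.34, and the counts were the same after centring. INSIG1, which holds the sterol-sensing transcription factor SREBP in the endoplasmic reticulum and is its target, was at 41.5 and 43.2 FPKM against 85 and 86.7 FPKM (1.02, SE 0.06, limma adjusted p = 2.1e-11). HMGCS1 (0.48), IDI1 (0.35), FDFT1 (0.35) and DHCR7 (0.34), enzymes of the synthesis route, were called higher as well.

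Wnt genes included several of the larger differences. Of 15 Wnt targets 10 were higher and 1 lower (10 and 2 after centring), with a median of 0.30. CD44, a hyaluronan receptor, was at 2.51 and 2.92 FPKM against 10.5 and 10.7 FPKM (1.94, SE 0.10, limma adjusted p = 6.8e-13), and APCDD1, an inhibitor of Wnt at the membrane, at 3.6 and 4.05 FPKM against 13.2 and 14.4 FPKM (1.82, SE 0.10). AXIN2 (0.29) and NKD1 (0.28), feedback inhibitors, and the stem cell genes LGR5 (0.41) and ASCL2 (0.58) were called higher by smaller amounts; MYC (0.13) did not pass and SOX4 was lower (-0.25). Of 12 Wnt ligands and receptors 5 were higher and 0 lower: WNT5A was at 3.66 and 3.75 FPKM against 10.4 and 11.1 FPKM (1.51, SE 0.10), and WNT7B at 0.687 and 0.81 FPKM against 1.67 and 1.88 FPKM (1.15, SE 0.15).

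Of 14 YAP targets 8 were higher and 0 lower, also after centring. Over all tested genes 26.8% were higher and 3.91% lower, and 21.2% and 18.4% after centring. CCN1, a matricellular protein, was at 65.9 and 60.8 FPKM against 115 and 120 FPKM (0.89, SE 0.07), and CCN2 at 7.82 and 10 FPKM against 14.4 and 15.6 FPKM (0.76, SE 0.14). Beside the same shares over all genes, 8 of 22 genes of TGF-beta and BMP signalling were higher and 0 lower, and 8 and 1 after centring. The largest were in ID3 and SMAD6, both known as genes that BMP induces: ID3, an inhibitor of helix-loop-helix factors, was at 26.7 and 29.2 FPKM against 86.4 and 81.3 FPKM (1.58, SE 0.07, limma adjusted p = 9.4e-14), and SMAD6, an inhibitory SMAD, at 0.285 and 0.248 FPKM against 0.893 and 1.03 FPKM (1.53, SE 0.14). The receptors BMPR1A (0.01), BMPR2 (0.14) and TGFBR1 (0.14) and the signal carriers SMAD2 (0.14), SMAD3 (0.03) and SMAD4 (0.11) did not pass. Among growth factors, 9 of 19 genes were higher and 1 lower, including IGF2 (1.18 and 1.48 FPKM against 3.25 FPKM in both INTS8 libraries; 1.24, SE 0.13) and VEGFA (24.4 and 25.6 FPKM against 45.9 and 42.5 FPKM; 0.82, SE 0.08).

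Intestinal identity genes split. Of 18 tested, 8 were higher and 1 lower, and 5 and 4 after centring. The shares over all tested genes were 26.8% and 3.91%, and 21.2% and 18.4% after centring. HNF4G, a nuclear receptor of intestinal cells, was at 0.0126 and 0.0189 FPKM in the INTS11 line and at 0.642 and 0.629 FPKM in the INTS8 line (2.67 on the log2(FPKM + 0.1) scale, SE 0.19, limma adjusted p = 1.7e-10). The transmembrane mucin MUC1 was higher too, at 0.682 and 0.454 FPKM against 2.04 and 1.59 FPKM (1.53, SE 0.24). So were the transmembrane mucin MUC13 (1.46) and the adhesion molecule CDH17 (0.61). The secreted mucin MUC5AC belongs to another list, of goblet and enteroendocrine genes, and not to these 18. MUC5AC was at 1.19 and 1.72 FPKM against 6.78 and 6.44 FPKM (2.13, SE 0.12). CDX2 (0.04), the intestinal master regulator, and EPCAM (-0.04) did not pass. HOX genes, which record position along the gut, were higher in 4 of 9 and lower in 0 (2 and 0 after centring), with HOXD9 at 2.71 and 3.61 FPKM against 4.96 and 7.21 FPKM (0.92, SE 0.26, limma adjusted p = 0.034).

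Chemokines went both ways. CX3CL1, the membrane-bound chemokine fractalkine, was at 3.11 and 2.79 FPKM against 13.1 and 13.4 FPKM (2.13, SE 0.09, limma adjusted p = 9.4e-14). The neutrophil chemokine CXCL3 was at 233 and 250 FPKM against 129 and 141 FPKM (-0.84, SE 0.07, limma adjusted p = 1.8e-08), and its neighbours CXCL1 (-0.61), CXCL2 (-0.60) and CXCL5 (-0.31) were lower with it; CXCL1, CXCL2 and CXCL3 are close in sequence, which can mix their counts. Over the 15 tested genes of chemokines and NF-kB targets, 4 were higher and 4 lower (3 and 5 after centring), and NFKBIA (0.03) and CXCL8 (0.01) did not pass. MAPK feedback genes were likewise divided, 5 higher and 4 lower of 17 (3 and 5 after centring): ETV5 was at 12.6 and 12.5 FPKM against 20.1 and 20 FPKM (0.67, SE 0.08), while the ERK phosphatase DUSP6 was at 117 and 127 FPKM against 86.3 and 93.3 FPKM (-0.44, SE 0.07).

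**Figure D3:**
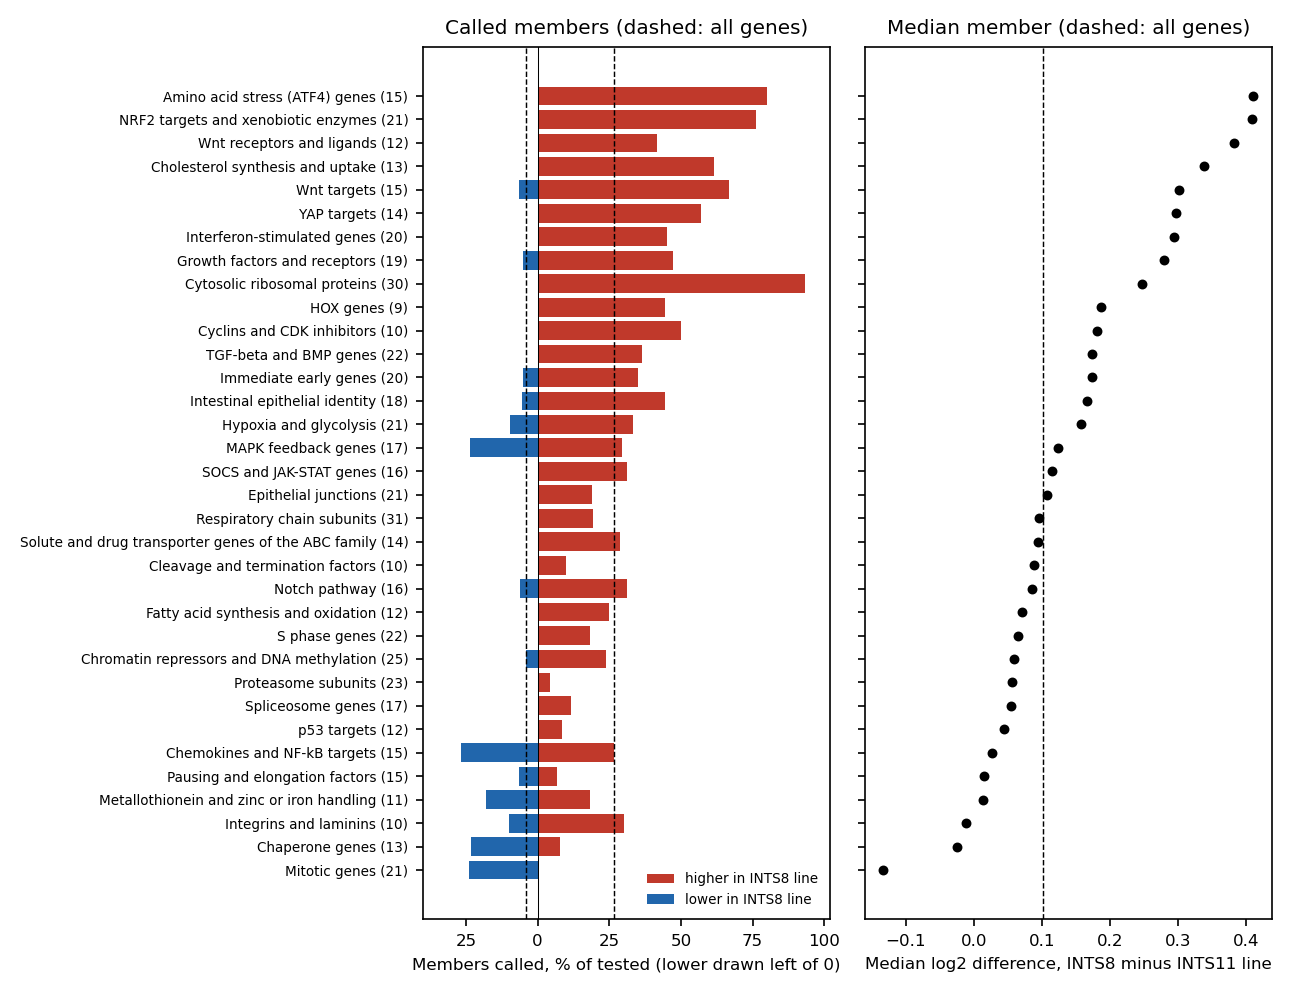
For each list with at least 9 tested members (number in brackets), bars give the percentage of members called higher (right) or lower (left) in the INTS8 line, and points give the median log2 difference; dashed lines mark the values over all genes, 26.8% higher, 3.91% lower and a median of 0.10. Amino acid stress genes and NRF2 targets have the highest medians, at 0.41, and mitotic genes the lowest, at -0.13.

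Interferon-stimulated genes were higher in 9 of 20 and lower in 0, with a median of 0.29, and in 6 and 2 after centring. All tested genes gave 26.8% higher and 3.91% lower, and 21.2% and 18.4% after centring. CMPK2, a mitochondrial nucleotide kinase, was at 0.717 and 0.438 FPKM against 1.63 and 1.91 FPKM (1.49, SE 0.22, limma adjusted p = 0.00014), and SAMD9, an antiviral protein, at 4.11 and 5.3 FPKM against 8.06 and 9.89 FPKM (0.92, SE 0.22, limma adjusted p = 0.013). IFIT1 (0.46), MX1 (0.54), MX2 (0.61) and OAS1 (0.44) were called higher as well, whereas the regulator IRF1 (-0.04) did not pass.

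The promoters of 4 genes called higher, chosen as members that hold the motif known for their list, are printed to show where it lies. Each is the 250 bases before the start of the gene from RefSeq (GRCh38.p14), written 5′ to 3′ on the gene's strand, with matches in capitals to the list's motif on either strand: the core of the interferon response element, GAAA and GAAA with 2 bases between them, for IFIT1 (chr10:89392373-89392622, plus strand) and SAMD9 (chr7:93117980-93118229, minus strand); TGACNNNGC, the core of the antioxidant response element, for TXNRD1 (chr12:104215529-104215778, plus strand); and TGATGNAA, the core of the element that ATF4 binds, for CHAC1 (chr15:40953221-40953470, plus strand).
IFIT1: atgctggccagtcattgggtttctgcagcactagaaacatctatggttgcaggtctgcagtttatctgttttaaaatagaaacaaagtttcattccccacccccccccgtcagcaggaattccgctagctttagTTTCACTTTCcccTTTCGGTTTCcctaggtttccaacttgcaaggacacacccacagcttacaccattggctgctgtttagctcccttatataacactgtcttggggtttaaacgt
SAMD9: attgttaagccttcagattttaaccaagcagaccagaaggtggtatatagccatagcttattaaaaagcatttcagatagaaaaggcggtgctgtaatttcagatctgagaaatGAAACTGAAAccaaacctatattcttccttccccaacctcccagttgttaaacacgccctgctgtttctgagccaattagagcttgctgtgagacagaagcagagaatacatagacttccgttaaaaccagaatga
TXNRD1: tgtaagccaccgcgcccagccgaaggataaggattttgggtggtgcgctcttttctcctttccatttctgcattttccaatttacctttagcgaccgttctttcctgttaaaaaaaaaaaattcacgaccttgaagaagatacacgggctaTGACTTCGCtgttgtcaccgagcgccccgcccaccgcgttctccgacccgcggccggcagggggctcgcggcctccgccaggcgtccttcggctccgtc
CHAC1: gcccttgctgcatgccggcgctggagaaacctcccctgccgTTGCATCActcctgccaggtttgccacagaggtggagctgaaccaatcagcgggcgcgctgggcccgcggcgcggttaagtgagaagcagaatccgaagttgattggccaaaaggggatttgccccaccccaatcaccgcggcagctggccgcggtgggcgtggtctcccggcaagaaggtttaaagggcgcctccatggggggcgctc
The interferon motif was held by 9 of the 15 interferon-stimulated genes that had a promoter in the table, beside 2.43% of the 5348 tested genes with one and 3.07% of all 27305 promoters. It was held by 4 of the 8 members called higher and by 5 of the 7 that were not. The antioxidant motif was held by 5 of 17 members of the NRF2 list (4 of 13 called higher), beside 12.1% of tested genes. The ATF4 motif was held by 1 of 13 members of its list, CHAC1, beside 1.36% of tested genes and 3.19% of all promoters. The 3 motifs were searched separately, a match is a match of letters only, and the windows leave out more distant elements.

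The difference between the lines was not even over levels or lengths. With the genes in 5 bins of equal size by mean FPKM, in the lowest bin (median 2.1 FPKM) 40.0% were called higher and 4.79% lower, with a median log2 difference of 0.31; in the next to highest bin 15.5% were called higher, with a median of 0.05, and in the highest (median 49.3) 24.6%, with a median of 0.07. Of the 572 genes at least 1.5-fold higher, 367 were in the lowest bin. By gene length, as inferred from the values, the median difference went from 0.17 in the bin of the shortest genes (median 6860 bp) to 0.05 in the longest (median 155217 bp). The share called lower went from 2.74% to 6.46%. Whether technical steps that act on short or weakly transcribed genes had a part in these trends was not tested. Ribosomal protein genes, with a median length of 5076 bp, lie among the short genes.

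**Figure D4:**
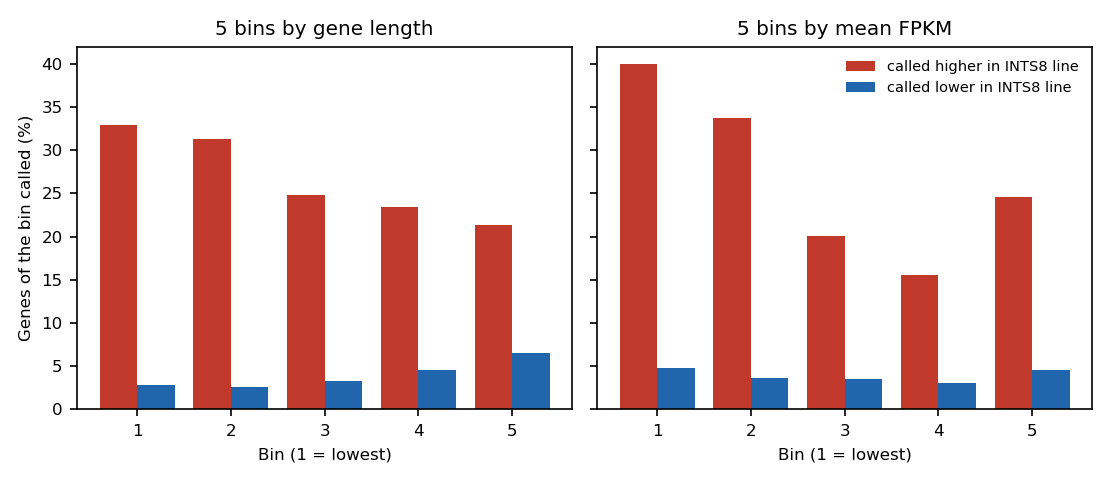
Bars give the percentage of genes called higher and called lower in the INTS8 line in each of 5 bins of gene length (left) and of mean FPKM (right), counted from the lowest. The share called higher goes from 33.0% in the shortest to 21.4% in the longest genes, and is highest, at 40.0%, in the bin with the lowest level.

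By RefSeq gene order, chromosome medians of the log2 difference ranged from 0.04 on chromosomes 4 and 13 to 0.16 on chromosome 22. The share of genes called lower ranged from 0 of 146 on chromosome 22 to 31 of 277 (11.2%) on chromosome 4, beside 3.91% over all genes. There were 14 runs of at least 5 neighbouring tested genes called in 1 direction, with 79 genes in all. Each of these genes was higher in the INTS8 line, beside 26.8% of all tested genes called higher and 3.91% lower. Whether there were more runs than those shares give in a random gene order was not tested. The longest, of 8 genes, held the kallikrein proteases KLK1 (1.64), KLK10 (2.06) and KLK6 between MYH14 and ETFB. Another held CX3CL1 (2.13), CCDC102A (1.60) and PLLP (0.90), and another the interferon-stimulated MX1 and MX2 with PCP4 (1.14) and FAM3B (0.99).

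Genes listed for only 1 of the lines could not be tested. For the INTS8 line 144 genes were listed that were not listed for the INTS11 line, 130 of which were also listed for the N211del line. For the INTS11 line 35 were listed that were not listed for the INTS8 line, 8 of which were also listed for the N211del line. Of the 6618 genes listed for both lines, 6603 were also listed for the N211del line. Their levels were mostly low, with a median of 0.395 FPKM for the 144 and 0.255 FPKM for the 35. A mean of at least 1 FPKM was reached by 35 of the 144 and by 5 of the 35. The highest, chosen after its values were seen, was UGT1A6, a glucuronosyltransferase whose gene overlaps its sister genes of the UGT1A cluster. UGT1A6 was at 19.3 and 19.5 FPKM in the INTS8 DMSO libraries and at 10.4 and 10.5 FPKM in the N211del DMSO libraries; in batch 2, where it was listed for both lines, the INTS11 line gave 0.154 and 0.164 FPKM and the N211del line 9.82 and 9.99 FPKM at 0 h (log2 difference 5.27). HOXD11, named in the same way, was at 4.5 and 5.32 FPKM in the INTS8 line. In batch 2 HOXD11 was at 2.44 and 2.46 FPKM in the INTS11 line against 5.77 and 7.61 FPKM in the N211del line. These examples do not stand for the set. Of the 144 genes, 116 were tested in batch 2 at 0 h, and 29 were called higher and 20 lower in the N211del line. Of the 35, 28 were tested, with 6 higher and 7 lower. Among all genes tested there, 38.4% were higher and 31.6% lower.

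The difference was then set beside other libraries. The dTAG13 libraries of batch 1 did not enter the DMSO difference itself. They did enter the gene filter and the pooled spread behind its calls, so the 2 sets of calls are not independent. After 3 h of dTAG13, which degrades a different protein in each line, 3142 genes were higher in the INTS8 line (47.8% of 6579) and 467 lower (7.1%). Of the 572 genes at least 1.5-fold higher in DMSO, 497 were called higher and 11 lower there, and of the 60 at least 1.5-fold lower, 29 were called lower and 11 higher. Across the 6579 genes the 2 sets of differences had r = 0.57 and rho = 0.43. The line difference itself changed between DMSO and dTAG13 in 1673 genes (25.4%) by limma's interaction term.

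Batch 2 allowed a comparison with other libraries of the INTS11 line, though with the N211del line in place of the INTS8 line. At 0 h, 2668 genes were higher in the N211del line (38.4% of 6950) and 2194 lower (31.6%). Of the 60 genes at least 1.5-fold lower in the INTS8 line in DMSO, 44 were called lower and 7 higher in the N211del line at 0 h. The 572 genes at least 1.5-fold higher were less clear: 239 of the 571 tested were called higher (41.9%) and 177 lower (31.0%), shares close to those of all 6569 genes tested in both (39.9% and 32.2%). Across those genes the relation was weak (r = 0.16, rho = 0.09).

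At the level of single genes, 8 of the 12 largest positive differences were called in the same direction in batch 2 and 3 in the opposite one, and all 12 of the largest negative ones kept their direction. IL7 was 2.61 higher on the log2 scale in the N211del line at 0 h, RAB36 2.32, VAV2 1.87, ARHGAP22 1.74 and SERPINA1 1.41; VAV2 stood at 1.53 and 1.41 FPKM in the INTS11 libraries of batch 2 and at 5.69 and 5.58 FPKM in the N211del libraries. MUC5AC (2.33), APCDD1 (1.86) and WNT5A kept their direction too. CYP4F12 (-0.88), SYT12 (-0.79) and CYP4F3 (-0.69) were lower there. On the low side, TXNIP (-2.55), SLC2A3 (-2.53), ZNF780B (-2.42) and PDE4D (-1.63) were again lower in the line with the INTS8 tag.

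Several stress, sterol and signalling genes had the opposite sign in batch 2. DDIT4 was 2.63 higher in the N211del than in the INTS11 line in DMSO, a value that shares the INTS11 libraries with the main comparison, but 2.68 lower at 0 h in batch 2 (-2.68), where the INTS11 line stood at 249 and 221 FPKM and the N211del line at 37 and 36.1 FPKM. INSIG1 (-1.79), NQO1 (-0.86), CX3CL1 (-0.84) and ID3 (-0.60) were also lower in the N211del line at 0 h, opposite to the sign of their difference between the INTS8 and INTS11 lines. Over all genes tested at 0 h, 38.4% were higher and 31.6% lower, with a median of 0.05. Beside these shares, cholesterol genes had a median of -0.93 (2 higher and 9 lower of 13). Amino acid stress genes had a median of -0.19 (4 higher and 8 lower of 15). NRF2 targets (8 higher and 8 lower of 21) were near the shares of all genes. Ribosomal protein genes were higher in 30 of 30, with a median of 0.44, and YAP targets in 12 of 14. S phase genes were higher in 21 of 22 and Wnt targets in 10 of 15, with 3 lower. Interferon-stimulated genes had 5 higher and 7 lower of 20, and mitotic genes 2 higher and 7 lower of 21. These libraries differ from the batch 1 DMSO libraries in the line compared, in the absence of a 3 h vehicle treatment and in the batch, which cannot be told apart.

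**Figure D5:**
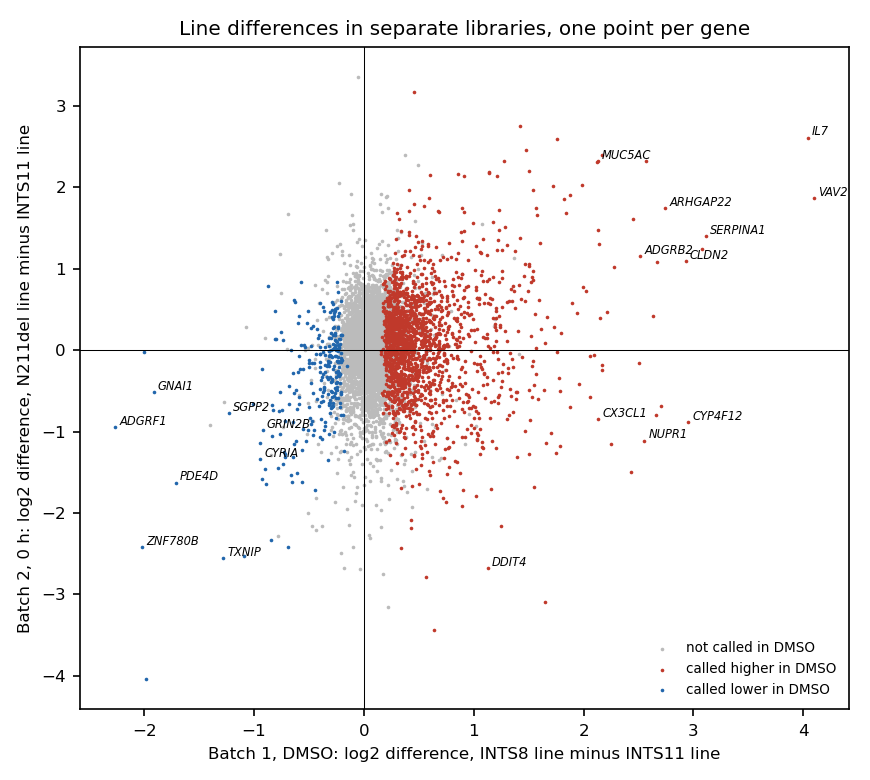
Each point is 1 of the 6569 genes tested in both batches: the log2 difference INTS8 line minus INTS11 line in batch 1 DMSO (horizontal) against N211del line minus INTS11 line at 0 h in batch 2 (vertical), which share no library. VAV2 and IL7 lie at the upper right and ZNF780B and PDE4D at the lower left, while DDIT4, higher in the INTS8 line, lies below 0 at -2.68.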

How the data were processed

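TT-seq of DLD1 lines was deposited as 1 file per library. The authors' files give FPKM per gene, per the file headers; the submitters' processing notes name, without their roles, the builds hg19 and mm10, the aligner STAR (2.7.5c), and DESeq2 (1.26.0), Picard (2.23.3), Trim Galore (0.6.6) and SAMtools (1.9). How genes were counted, any spike-in scaling and the filter that made the gene lists differ by line are not given in the sources used here. Batch 1 values were taken as whole multiples of 1 unit per gene, which gave the inferred gene length (6832 genes, median 33609.5 bp, presumably introns included). With these lengths, batch 2 values also carry 1 factor per library, with 81.6% to 87.0% of values whole.

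From these values log2(FPKM + 0.1) was fitted with limma 3.58.1 (R 4.3.3; trended, robust), 1 mean for each group of 2 libraries, on the 12 libraries of a batch, for genes listed in all 12 with a mean of at least 0.1; p-values are two-sided with Benjamini-Hochberg adjustment over all tested genes, called at 0.05, and a log2 difference of this kind understates the change of low genes. The data are deposited as FPKM, so counting depth per library is known only through the units above. The series' design text calls the pairs biological duplicates. The 2 INTS8 DMSO libraries lay within counting noise of each other only as an average (a chi-square of 0.989 per gene over 6547 genes, against 1.41 for INTS11). For this INTS8 pair it was 0.774 in the fifth of genes with the fewest units and 1.52 in the fifth with the most. The pair was kept as 2 libraries, since other pairs had averages as low and the units may have been scaled before rounding.

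Genes named are the 12 with the largest positive and the 12 with the largest negative differences among called genes with a mean of at least 1 and no overlap between lines (non-coding and uncharacterised names left out), the 2 called members of each of 43 lists with the largest differences, all tested Integrator and PP2A subunits, and called genes in runs of at least 5 neighbours; further list members are named to describe a list. The comparison, lists and members were chosen with earlier results of these data known. RefSeq tables (GRCh38.p14) gave gene order for 6577 of 6579 genes and promoter sequences; no other coordinates are printed, since the files name hg19. Scripts were tested on simulated data. Alternatives were other pseudocounts, filters, centring, a replicate block, fewer libraries and limma voom. Some list members are not reported here.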

Additional observations from a re-analysis of the deposited data

Results flagged for a closer look

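The difference between the lines was not the same in DMSO and after 3 h of dTAG13 for 14 of the 24 genes with the largest DMSO differences, by limma's interaction term over all 6579 genes (adjusted p at most 0.05; 25.4% of all genes passed). Values are the log2 difference in dTAG13 minus that in DMSO. Among genes higher in the INTS8 line, the difference was smaller with dTAG13 for CLDN2 (-1.38), SYT12 (-0.85), SERPINA1 (-0.84), ARHGAP22 (-0.81) and IL7 (-0.77), and larger for CYP4F12 (0.78) and ATOH8 (0.52); all 7 were still higher in the INTS8 line. Among genes lower in the INTS8 line, it moved towards or past 0 for SERPINE2 (1.91), NR3C2 (1.22), CYRIA (1.00), SLC2A3 (0.83), GNAI1 (0.79) and PDE4D (0.49). SERPINE2, lower in DMSO by a log2 difference of -0.90, was higher in the INTS8 line with dTAG13 (1.01), and NR3C2 went from -0.89 to 0.33. SGPP2 moved further down (-1.55), to a difference of -2.78. Since dTAG13 degrades INTS8 in one line and INTS11 in the other, the interaction compares those responses and not the baseline. The 24 genes were chosen on the DMSO libraries that also enter the interaction. Neither the count of 14 nor the shifts towards 0 are therefore independent of that choice.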

How the results depend on the processing

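The count of 2019 called genes (1762 higher, 257 lower) was within 1.5 times under the other pseudocounts, filters, limma voom (2188) and the fit of only the 4 libraries (2103). Exceptions follow. A pseudocount of 1 left 347 genes at least 1.5-fold higher and 27 lower, as larger pseudocounts shrink low genes. Centring gave 1209 lower genes. A pair of alternatives was chosen after seeing the data: averaging pairs within counting noise gave 1228 called genes (1112 higher, 116 lower), with fewer samples, and removing each library's length trend gave 465 lower. Leaving out 1 of the 4 libraries gave 1369 to 1796 called genes, 1186 to 1621 higher and 140 to 185 lower, 517 to 673 at least 1.5-fold higher and 48 to 67 lower. Of 93 named genes that were called, 26 lost their call under at least 1 alternative and none changed sign. Signs changed for 4 genes that were not called: INTS1 (-0.023), INTS10 (-0.019) and PPP2R1A (-0.062) with centring and PPP2R1A also without the length trend (-0.0088); with 1 library left out PPP2R1A ranged from -0.0255 to 0.106 and NABP2 from -0.0308 to 0.0035. Counts for dTAG13, for the N211del line in DMSO and for 0 h stayed within 1.5 times under all alternatives run.

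Replicate numbers are shared across groups, but libraries with the same number did not deviate together (r = -0.02 between the INTS11 and INTS8 DMSO libraries). With the replicate number as a block 1982 genes were called (1733 higher, 249 lower). With 2 libraries a line and low values in many of the genes that differ most, small differences in low genes may go undetected.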
